A study of Homo sapiens with 24 samples.

Results

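Pirfenidone treated A549 cells were compared with PBS treated A549 cells after 24 h, on the 6 of 24 arrays whose sample titles name that line, time and treatment. A549 is an established cell line grown from a human lung adenocarcinoma. The titles of the 3 treated samples give a dose read here as 0.75 mg/ml Pirfenidone, though they name no volume. The 3 controls received PBS, and their titles carry the same figure. The study's legend for its A549 expression values at 6 h and 24 h names a higher dose, and which one applies is not settled here. The whole study held 8 groups of 3 arrays, with A549 and a second lung adenocarcinoma line, H1975, at 6 h and 24 h. Each array was an Agilent one-color oligonucleotide array, on which the brightness of a spot measures how much labeled RNA of the sample it binds. The labels do not say whether the 3 replicates of a group were separate cultures, so p-values measure the spread between these samples, which may be technical.

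Levels are given as normalized signals, the log2 of the deposited intensity minus the 75th percentile of the same array, so that 0 is the level of that percentile and negative values lie below it. Differences are Pirfenidone minus PBS on the log2 scale, where 1 is a doubling of the linear signal. A replicate pair is a Pirfenidone array and a PBS array with the same replicate number, and in A549 the arrays of 1 replicate number lay on 1 slide. The 6 arrays were of even quality: their 75th percentile lay between 2480 and 3222 intensity units, and 62.7% to 65.2% of probes were well above background on each.

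The A549 label was checked against marker genes. Of 13 epithelial and A549 markers, 11 were well above background on all 6 arrays, among them the simple epithelial keratin KRT8, with levels between 5.47 and 5.95. The lung lineage factor NKX2-1 was not well above background on any of the 6 arrays and the surfactant gene SFTPB on 1. Of 14 measured markers of immune, endothelial and fibroblast cells, 7 were well above background on none of the arrays, including CD3E, PECAM1, DCN and COL3A1, and 6 on all, including COL1A1 and the monocyte receptor CD14. The log2 of the summed linear level of these 14 was 0.79 to 1.23 on the PBS arrays and 0.71 to 1.28 on the Pirfenidone arrays. In bulk RNA, fewer cells of a kind and less RNA per cell cannot be told apart.

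Pirfenidone is an oral drug given for idiopathic pulmonary fibrosis, and the study asked what it does to lung cancer cells. Among the gene groups followed here, the unfolded protein response is the program by which a cell with misfolded proteins in its endoplasmic reticulum makes more chaperones, under the sensors ATF6, IRE1 and PERK and the factors ATF6, XBP1 and ATF4. ATF4 also drives genes of amino acid supply when amino acids run short. Genes of the G2 and M phases are switched on together late in the cell cycle by the MuvB complex with FOXM1 and B-MYB, so that their RNA falls and rises with the share of dividing cells.

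Gene groups with large shared differences in replicates 1 and 2 at 24 h were those of the unfolded protein response and of mitosis, and some members of each have a short sequence in common before their start sites. The ER stress response element is CCAAT followed by 9 bases and CCACG, and it was searched on both strands in the 250 bases upstream of each start site in RefSeq's promoters of GRCh38.p14. It was found in 6 of the 21 unfolded protein response genes with a promoter there and in 0.0806% of all 27305 promoters. The promoters of the chaperone HSPA5, the secreted factor CRELD2 and the transcription factor XBP1 are shown with the letters of the element in capitals.
HSPA5, chr9:125241344-125241593, minus strand: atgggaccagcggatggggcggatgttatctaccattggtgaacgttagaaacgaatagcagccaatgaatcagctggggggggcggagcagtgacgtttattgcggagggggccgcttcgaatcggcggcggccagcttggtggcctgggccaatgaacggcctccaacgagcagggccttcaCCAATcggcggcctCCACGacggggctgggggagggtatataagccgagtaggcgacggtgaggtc
CRELD2, chr22:49918384-49918633, plus strand: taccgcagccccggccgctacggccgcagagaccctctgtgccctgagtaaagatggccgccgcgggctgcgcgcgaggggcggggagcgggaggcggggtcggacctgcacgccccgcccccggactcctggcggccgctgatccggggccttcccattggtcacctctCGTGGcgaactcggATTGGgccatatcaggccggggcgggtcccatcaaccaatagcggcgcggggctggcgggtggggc
XBP1, chr22:28800570-28800819, minus strand: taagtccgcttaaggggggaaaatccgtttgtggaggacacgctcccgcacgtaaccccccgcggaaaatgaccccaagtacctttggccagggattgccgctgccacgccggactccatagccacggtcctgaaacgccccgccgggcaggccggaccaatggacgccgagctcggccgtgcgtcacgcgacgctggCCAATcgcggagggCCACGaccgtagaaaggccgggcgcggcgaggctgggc
The cell cycle genes homology region, the site that MuvB binds, was searched as TTTGAA on both strands of the same windows. It was found in 24 of 45 G2/M genes with a promoter, in 1 of 33 S phase genes and in 13.6% of all promoters. The promoters of cyclin B2 (CCNB2), of borealin (CDCA8), a partner of survivin, and of the proliferation antigen Ki-67 (MKI67) are shown with the matches in capitals.
CCNB2, chr15:59104896-59105145, plus strand: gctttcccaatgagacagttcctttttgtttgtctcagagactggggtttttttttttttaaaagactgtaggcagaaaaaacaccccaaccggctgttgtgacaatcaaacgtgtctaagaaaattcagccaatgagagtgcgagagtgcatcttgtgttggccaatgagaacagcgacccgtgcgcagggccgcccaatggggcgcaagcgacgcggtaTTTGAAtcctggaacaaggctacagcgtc
CDCA8, chr1:37692266-37692515, plus strand: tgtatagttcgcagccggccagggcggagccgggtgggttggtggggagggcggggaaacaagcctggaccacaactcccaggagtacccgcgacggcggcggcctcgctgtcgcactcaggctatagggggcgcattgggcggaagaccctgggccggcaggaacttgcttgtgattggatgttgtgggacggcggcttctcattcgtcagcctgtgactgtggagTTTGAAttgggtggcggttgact
MKI67, chr10:128126424-128126673, minus strand: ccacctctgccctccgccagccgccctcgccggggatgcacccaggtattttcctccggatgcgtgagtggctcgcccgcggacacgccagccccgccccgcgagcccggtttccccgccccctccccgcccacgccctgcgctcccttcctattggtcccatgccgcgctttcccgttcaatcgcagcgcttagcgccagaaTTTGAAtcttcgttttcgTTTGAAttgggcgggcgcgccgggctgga
A match is a description of the letters, not a measured binding site.

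The pair of replicate 3 ran against the other 2 pairs, and this precedes every result. Across 23817 probes the differences of pairs 1 and 2 correlated with an r of 0.39, while pair 3 correlated with pair 1 at -0.38 and across 23809 probes with pair 2 at -0.55. The 3 pairs share no array, but probes are not independent replicates, and no test was made of these values. At 6 h the 3 A549 pairs correlated with each other at 0.29, 0.35 and 0.44. The 24 h pair 3 correlated with these at -0.26, -0.24 and -0.36.

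The PBS array of pair 3 departed from its group. The array labeled PBS replicate 3 differed from PBS replicates 1 and 2 with a standard deviation across probes of 0.62 and 0.64, against 0.39 between those 2 PBS arrays. The array labeled Pirfenidone replicate 3 differed from PBS replicates 1 and 2 with a standard deviation of 0.44 and 0.46 and from Pirfenidone replicates 1 and 2 with 0.46 and 0.63. The Pirfenidone arrays 1 and 2 differed from each other by 0.50. The array labeled PBS replicate 3 differed from Pirfenidone replicates 1 and 2 by 0.51 and 0.54, less than from the other PBS arrays. In replicates 1 and 2 the distances did not sort by label either. Pirfenidone replicate 1 differed from PBS replicates 1 and 2 by 0.34 and 0.42, less than from Pirfenidone replicate 2. Pirfenidone replicate 2 differed from those PBS arrays by 0.61 and 0.51. Whether the labels or the samples of pair 3 were exchanged was not tested. An exchange would turn the sign of pair 3 and alter every value given over 3 replicates. Results are therefore given for all 3 pairs and for replicates 1 and 2 alone.

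The median G2/M gene, each gene set against its mean over the 12 A549 arrays, lay at 0.10, 0.14 and -1.03 on the PBS arrays of replicates 1, 2 and 3 at 24 h, and at -0.11, -0.58 and 0.21 on the Pirfenidone arrays. The lowest of the 6 was thus a PBS array and the highest a Pirfenidone array, both of replicate 3. At 6 h the same median lay between 0.22 and 0.31 on PBS and between 0.10 and 0.17 on Pirfenidone arrays. The unfolded protein response median was -0.27, -0.20 and 0.30 on the PBS arrays at 24 h and 0.06, 0.14 and -0.23 on the Pirfenidone arrays. Again replicates 1 and 2 ran from lower in PBS to higher in Pirfenidone and replicate 3 the other way, as the plot of list levels by array shows.

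**Figure D1:**
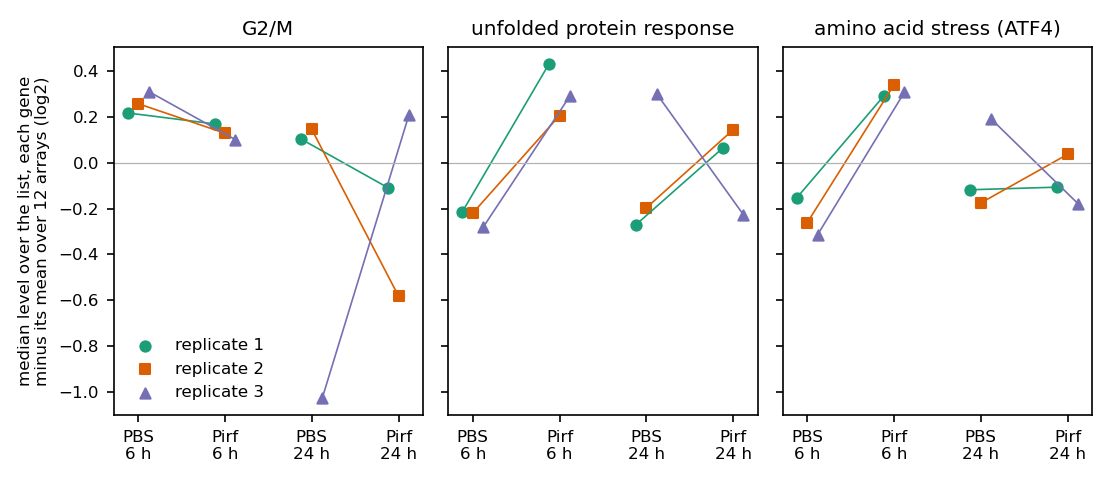
Median level of the G2/M list (54 genes), the unfolded protein response list (22 genes) and the ATF4 list (36 genes) on the 12 A549 arrays, each gene minus its mean over the arrays (log2, y axis), by treatment and time (x axis), with lines joining the arrays of a replicate. At 6 h the 3 lines run alike, and at 24 h the line of replicate 3 runs opposite to the others for the G2/M and unfolded protein response lists, from -1.03 to 0.21 in G2/M.

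Few probes passed the test of Pirfenidone against PBS at 24 h. With 3 replicates, 3 of 23827 probes passed limma's test, 0.0126% of those tested, where passing means a Benjamini-Hochberg adjusted p of at most 0.05 together with a log2 difference of 1 or more in size. One was higher and 2 were lower, and 227 probes had an unadjusted p below 0.05. With the slide as a block the number was 9, or 0.0378%. In replicates 1 and 2 alone 8 probes passed, 0.0336%, of which 1 was higher and 7 lower. With the slide as a block in the same 2 replicates, 178 probes passed, 0.747%, of which 73 were higher and 105 lower. The count moved from 8 to 411 when Pirfenidone replicate 1 was left out and to 0 when Pirfenidone replicate 2 was left out, so that it rests on single arrays.

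All 3 probes that passed with 3 replicates were near background. PNPLA5, a lipase family gene, lay at -7.22, -6.96 and -6.97 on the PBS arrays and at -8.92, -9.07 and -8.63 on the Pirfenidone arrays (adjusted p = 0.00528), and no array had it well above background. ZNF833P, a zinc finger pseudogene, lay at -6.85, -6.78 and -7.63 in PBS and at -8.92, -9.06 and -9.25 in Pirfenidone (adjusted p = 0.0163). It was well above background on 1 PBS array only. The third, a probe without a gene symbol, THC2647746, lay at -7.87, -7.92 and -7.94 in PBS and at -6.67, -6.84 and -6.45 in Pirfenidone (adjusted p = 0.00528), and 1 Pirfenidone array had it well above background. In each of the 3 the groups did not overlap, and no fold is given since at least 1 group had no array well above background.

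NUCB2 was the gene that rose in replicates 1 and 2. It encodes nucleobindin 2, a calcium-binding protein of the Golgi and the precursor of nesfatin-1, and its probe lies at chr11:17351767-17351826 of hg19. Its level was 1.37 and 1.33 in PBS replicates 1 and 2 and 2.25 and 2.66 in the matching Pirfenidone arrays, a difference of 1.1 (SE 0.19, limma, adjusted p = 0.0418). In replicate 3 the PBS level was 2.91, above all other arrays, and the Pirfenidone level 1.46. Over 3 replicates the difference was 0.25 (SE 0.32, limma, adjusted p = 1). At 6 h the 3 pairs were at 0.69, 0.65 and 0.77. The difference of 0.71 lay under the fold limit of 1, so it could not pass at any p (limma without the block, adjusted p = 0.785).

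ASB2 fell in replicates 1 and 2. It encodes a substrate adaptor of a ubiquitin ligase, and its probe lies at chr14:94400601-94400660 of hg19. The level was -4.40 and -4.05 in PBS and -5.98 and -5.84 in Pirfenidone, so the difference was -1.69 (SE 0.24, limma, adjusted p = 0.029). In replicate 3 PBS had -7.50, where the probe was not well above background, and Pirfenidone -5.03. The other 6 probes that passed in these replicates were all lower. They were PNPLA5, ZNF833P, SYCP2, PABIR3 and probes that the array files name LOC645195 and LOC101927322. SYCP2 had no array of replicates 1 and 2 well above background, PABIR3 had both PBS arrays and neither Pirfenidone array, where the PBS level was at least 1.64-fold higher, and both LOC probes had all 4 arrays. These 4 were named after their values were seen.

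The unfolded protein response genes were higher with Pirfenidone in replicates 1 and 2. Of 22 genes tested, 17 were higher in both pairs and lower in pair 3, a pattern that 29.9% of all 16158 genes with 3 pairs had. The median difference was 0.35 in pair 1, 0.36 in pair 2 and -0.52 in pair 3, against -0.01, -0.01 and -0.07 over all genes. No gene of the list passed with 3 replicates, nor in replicates 1 and 2 without the block. With the slide as a block, 1 of the 22 passed higher in replicates 1 and 2, where 0.346% of genes did, and none passed lower.

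That gene was DNAJB9, a co-chaperone of HSPA5 in the endoplasmic reticulum and a target of XBP1, whose probe lies at chr7:108214515-108214574 of hg19. Its level was 0.59, 0.81 and 2.76 in PBS and 1.87, 2.57 and 0.50 in Pirfenidone for replicates 1, 2 and 3. The highest PBS array was that of replicate 3, and the 2 groups overlapped fully. The difference in replicates 1 and 2 was 1.52 (limma, adjusted p = 0.176, and 0.0486 with the slide as a block), and over 3 replicates it was 0.26.

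HERPUD1, which helps to clear misfolded proteins from the endoplasmic reticulum, lay at 3.84, 4.01 and 4.85 in PBS and at 4.43, 4.66 and 3.83 in Pirfenidone. The pair differences were 0.59, 0.65 and -1.02. The disulfide isomerase PDIA4 lay at 2.50, 2.58 and 3.40 in PBS and 3.02, 3.79 and 2.46 in Pirfenidone, with pair differences of 0.52, 1.21 and -0.93. In both genes the PBS array of replicate 3 stood above PBS replicates 1 and 2 and the Pirfenidone array of replicate 3 stood below the other Pirfenidone arrays. HSPA5, the main chaperone of the compartment, had pair differences of 0.55, 0.34 and -0.76, XBP1 of 0.30, 0.60 and -0.81 and CRELD2 of 0.37, 0.38 and -0.37. PDIA6 was measured by 2 probes that disagreed in pair 2, the brighter at 0.76 and the other at -0.10. SERPINH1, a collagen chaperone, went the other way, with pair differences of -0.23, -0.18 and 0.39.

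These genes had been higher at 6 h as well. The list median at 6 h was 0.67, 0.46 and 0.55 in the 3 pairs. Without the block, 4 of the 22 genes passed higher, in a comparison in which 42 of 23827 probes passed, 0.176%. They were HERPUD1, DNAJB9, MANF and SYVN1. With the slide as a block, 61 probes passed at 6 h, 0.256%, and DNAJB9 did not (adjusted p = 0.0593). HERPUD1 rose by 2.02 at 6 h (SE 0.22, limma, adjusted p = 0.000335), with 1.97, 1.73 and 2.34 in the 3 pairs. The change of HERPUD1 at 24 h was smaller than at 6 h by the test of the difference itself (-1.94, limma, adjusted p = 0.0453, and 0.0616 with the slide as a block). Without replicate 3 and with the slide as a block the difference between times was -1.40 (adjusted p = 0.0153). The 24 h pairs of DNAJB9, 1.28 and 1.76 in replicates 1 and 2, stood beside 2.21 and 2.19 at 6 h, and the difference between times did not pass (adjusted p = 0.894, and 0.439 in replicates 1 and 2 with the slide as a block). The plot of unfolded protein response genes shows all 22.

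**Figure D2:**
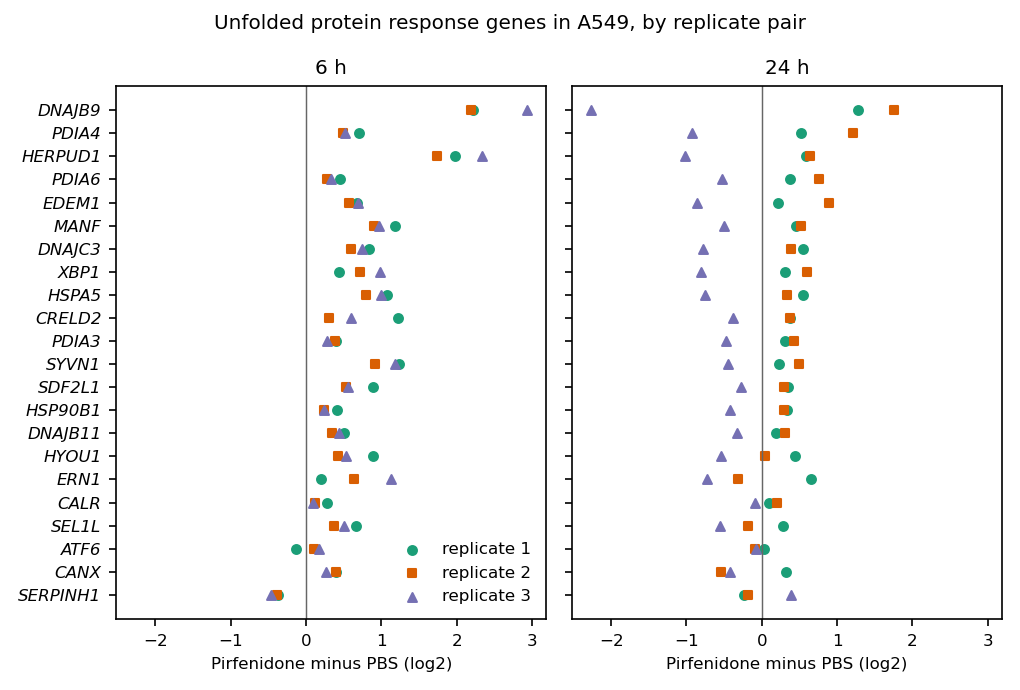
Difference of each of 22 unfolded protein response genes, Pirfenidone minus PBS (log2, x axis), in the 3 replicate pairs of A549 at 6 h (left) and 24 h (right), ordered by the mean of pairs 1 and 2 at 24 h. HERPUD1 lies between 1.73 and 2.34 at 6 h and at 0.59, 0.65 and -1.02 at 24 h.

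The genes of ATF4 and amino acid supply showed less at 24 h. The median of 36 genes was 0.04, 0.16 and -0.32 in the 3 pairs, where it had been 0.46, 0.60 and 0.64 at 6 h. In both pairs 1 and 2, 18 genes were higher and 7 were lower, where 5325 and 5823 of all 16171 genes were. None of the list passed at 24 h in either set of replicates, with or without the block. The stress regulator DDIT4 had the largest difference of the list in replicates 1 and 2. It lay at 3.85, 3.73 and 5.08 in PBS and at 4.42, 5.00 and 3.57 in Pirfenidone.

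Other members that had risen at 6 h were back near the PBS level in replicates 1 and 2. DDIT3, which encodes the stress factor CHOP, rose by 2.19 at 6 h (limma, adjusted p = 0.0233) and had pair differences of 0.05, -0.02 and -0.43 at 24 h. CHAC1, a glutathione-degrading enzyme, rose by 2.29 at 6 h (limma, adjusted p = 0.00619) and had -0.10, 0.50 and -1.34 at 24 h. ADM2, a peptide hormone of the adrenomedullin family, rose by 2.02 at 6 h (limma, adjusted p = 0.000568) and had 0.29, 0.14 and -1.19 at 24 h. The difference between the times passed for ADM2 (-2.28, limma, adjusted p = 0.0453, and 0.0616 with the slide as a block) but not for DDIT3 (-2.32, adjusted p = 0.386) or CHAC1 (-2.60, adjusted p = 0.115). These differences include pair 3 of 24 h. In replicates 1 and 2 with the slide as a block, no gene of the list passed the difference between the times.

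In all, the difference between 24 h and 6 h passed for 7 of 23827 probes with 3 replicates, 0.0294%. Without replicate 3 of 24 h it passed for 3 of 23827, and for 24 with the slide as a block. Besides HERPUD1, ADM2 and ZNF833P the 7 were the alanine transaminase GPT2, PLEKHM3, the RNA-binding protein HNRNPA0 and the antiviral RNA-binding protein ZC3HAV1, named after their values were seen. With the slide as a block GPT2 (adjusted p = 0.0516) and PLEKHM3 (adjusted p = 0.0677) did not pass by limma. GPT2 had pair differences of 0.87, 1.20 and 1.30 at 6 h and ZC3HAV1 of -1.44, -1.86 and -2.08. At 24 h ZC3HAV1 differed by -0.14 (SE 0.20) over the 3 replicates and GPT2 by -0.05 (SE 0.14). Like ZNF833P, PLEKHM3 had 24 h groups without overlap. On the probe that passed, PLEKHM3 lay at -5.52, -5.17 and -4.86 in PBS and at -5.89, -6.41 and -6.45 in Pirfenidone. Its difference at 24 h was -1.06 (SE 0.18, limma, adjusted p = 0.0812), which missed the threshold. APOBEC3D, a cytidine deaminase, rose by 1.16 at 6 h (limma, adjusted p = 0.0491) with 1.14, 0.81 and 1.54 in the pairs. At 24 h it was lower in every pair, by -0.53, -1.23 and -0.62, and the difference between times missed the threshold with 3 replicates (-1.96, adjusted p = 0.0698) and passed with the slide as a block (adjusted p = 0.00754). In replicates 1 and 2 with the slide as a block it was -2.04 (adjusted p = 0.0217).

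The genes of mitosis were lower with Pirfenidone in replicates 1 and 2 and higher in replicate 3. Of 54 G2/M genes, 51 were lower in pairs 1 and 2 and higher in pair 3, where 28.2% of all genes had that pattern. The list median was -0.20, -0.69 and 1.30 in the 3 pairs. Of 43 S phase genes 35 had the same pattern, with medians of -0.14, -0.35 and 0.71. All 17 genes of the list of survivin and its spindle checkpoint partners had it, with medians of -0.26, -0.89 and 1.47. None of the genes in the 3 lists passed in either direction over 3 replicates or in replicates 1 and 2, with or without the block.

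Survivin itself, BIRC5, a subunit of the chromosomal passenger complex and an inhibitor of apoptosis, lay at 5.04, 5.10 and 3.66 in PBS and at 4.81, 4.27 and 5.14 in Pirfenidone. Its lowest array was PBS replicate 3 and its highest Pirfenidone replicate 3. The difference was -0.53 in replicates 1 and 2 (SE 0.30, limma, adjusted p = 0.687) and 0.14 over 3 replicates (SE 0.33, adjusted p = 1). The 3 partners of survivin in that complex had the same pattern. INCENP, the scaffold, had pair differences of -0.30, -1.33 and 1.38, borealin (CDCA8) of -0.25, -1.13 and 1.39 and the kinase AURKB of -0.23, -1.07 and 1.55.

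BUB1, a kinase of the spindle checkpoint, lay at 2.03, 1.88 and 0.21 in PBS and at 1.62, 0.88 and 1.88 in Pirfenidone. CDC20, the activator of the anaphase-promoting complex, had pair differences of -0.35, -0.87 and 1.85. The kinetochore subunit SPC25 had -0.32, -1.19 and 1.72, and AURKA, a kinase of the spindle poles, -0.24, -0.69 and 1.62. In each of them pair 3 was larger in size than either other pair. The checkpoint genes BUB3, at -0.18, -0.43 and 0.73, and MAD2L1, at -0.29, -0.54 and 1.24, had smaller differences. Ki-67 (MKI67) lay at 0.20, -0.13 and -1.36 in PBS and at 0.08, -1.39 and 0.05 in Pirfenidone, so that pair 1 differed by only -0.12. All 3 of its probes were lower in pair 2 and higher in pair 3, and 1 of them was at 0.01 in pair 1.

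S phase genes with the largest differences in replicates 1 and 2 were UHRF1, which maintains DNA methylation, at -0.31 and -1.21, and the repressor E2F8, at -0.35 and -1.09. In pair 3 they were at 1.09 and 1.49. Histone genes split between pairs 1 and 2, with list medians of 0.03 and -0.54 over 45 genes and 0.61 in pair 3. Of the 45, 13 were lower in both pairs 1 and 2 and higher in pair 3, 28.9%, near the 28.2% of all genes. CDK inhibitors, cyclins of G1 and the RB and E2F genes grouped with them had medians of -0.04, -0.28 and 0.21 over 18 genes. The plot of gene lists by replicate pair shows the order of the lists.

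**Figure D3:**
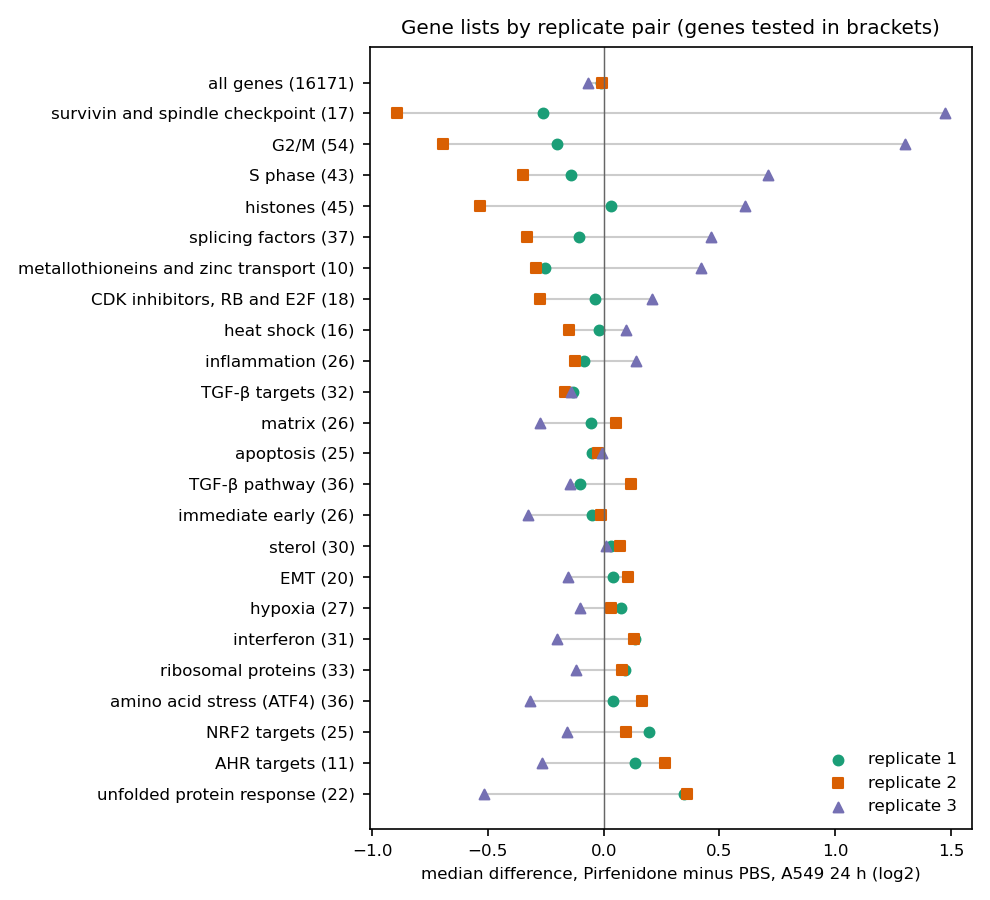
Median difference of the gene lists, Pirfenidone minus PBS in A549 at 24 h (log2, x axis), in the 3 replicate pairs, with the number of genes tested in brackets and a gray line over the range. The survivin and spindle checkpoint list spans from -0.89 in pair 2 to 1.47 in pair 3, while the median of all 16171 genes lies between -0.07 and -0.01.

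In H1975 cells at 24 h the same G2/M list had a median of -1.11, and 33 of its 54 genes fell, where 1.07% of all genes did. In A549 the list median was 0.11 over 3 pairs and -0.45 over pairs 1 and 2. The difference between the lines passed for 46 of 23827 probes with 3 replicates, 0.193%, and for 17 without replicate 3 of A549, 0.0713%. With the slide as a block and without that replicate it passed for 188 of 23827, of which 41 were higher and 147 lower. It did not pass over 3 replicates for BIRC5 (1.51, limma, adjusted p = 0.183) or BUB1 (1.42, adjusted p = 0.204). Both values include pair 3 of A549, where BIRC5 was at 1.48 and BUB1 at 1.68, while the means of pairs 1 and 2 were -0.53 and -0.70. They are therefore no measure of the line difference in replicates 1 and 2. For the unfolded protein response list the H1975 median was 0.18. The mean H1975 difference correlated with the A549 pairs at 0.23, 0.38 and -0.51 across probes, which share neither arrays nor controls.

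Splicing factor genes and metallothioneins ran the same way as the mitotic genes. Of 37 splicing factor genes, 30 were lower in pairs 1 and 2 and higher in pair 3, where 28.2% of all genes were. The list medians were -0.11, -0.33 and 0.46. The metallothionein and zinc transport list had medians of -0.25, -0.29 and 0.42 over 10 genes. MT1E, a zinc-binding protein, lay at 2.30, 2.86 and 1.61 in PBS and at 1.94, 2.09 and 2.34 in Pirfenidone. The metallothionein genes are near-identical in sequence, so their probes may share signal.

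Lists that were higher in replicates 1 and 2 had smaller differences. NRF2 targets, the genes of the antioxidant response, were higher in 24 of 25 cases in pair 1, in 16 in pair 2 and in 2 in pair 3, with medians of 0.19, 0.10 and -0.16. Of all 16171 genes, 7676, 7994 and 7030 were higher in these pairs. The largest, the export pump ABCC3, had 0.56, 0.92 and -1.26 on its brighter probe and -0.17, -0.16 and 0.28 on the other. Ribosomal protein genes were higher in pairs 1 and 2 and lower in pair 3 in 25 of 33 cases, at medians of 0.09, 0.08 and -0.12. Targets of the aryl hydrocarbon receptor showed that pattern in 9 of 11 cases, where 29.9% of all genes did. CYP1B1, a hydroxylase among them, lay at 2.05, 1.55 and 3.74 in PBS and at 2.81, 2.56 and 2.55 in Pirfenidone. None of these genes passed over 3 replicates.

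The largest differences in replicates 1 and 2 that passed with the slide as a block mostly belonged to genes outside the lists, some of them named after their values were seen. Of 16171 genes, 56 were higher, 0.346%, and 73 were lower, 0.451%. RNASE4, a secreted ribonuclease, lay at -1.44, -1.41 and 0.42 in PBS and at -0.62, 1.23 and -1.46 in Pirfenidone, a difference of 1.73 in replicates 1 and 2 (adjusted p = 0.043 with the block, 0.238 without). AGR2, a disulfide isomerase that mucin secretion needs, lay at 3.70, 3.85 and 6.30 in PBS and at 5.06, 5.46 and 4.68 in Pirfenidone, a difference of 1.49 (adjusted p = 0.0233 with the block, 0.332 without). Its highest array was PBS replicate 3. ERBB3, a receptor of the EGF receptor family, had pair differences of 1.06, 1.72 and -1.47 on its brighter probe and 0.38, 0.43 and -0.32 on the other. CDH1, the E-cadherin of epithelial junctions, had 0.73, 1.19 and -1.34, and its mean of 0.96 fell just under the fold limit.

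CYP26A1 encodes the enzyme that clears retinoic acid. Among genes well above background on all 6 arrays, it was the lowest that passed with the block in replicates 1 and 2. It lay at -0.21, -0.44 and -3.36 in PBS and at -1.66, -2.78 and -0.76 in Pirfenidone, a difference of -1.89 in replicates 1 and 2 (limma, adjusted p = 0.015 with the block, 0.176 without). At 6 h its pair differences were -1.01, -1.08 and -1.49. HAPLN3, a hyaluronan-linking matrix protein, lay at 2.41, 2.64 and -0.17 in PBS and at 1.22, 1.0 and 1.29 in Pirfenidone. The Pirfenidone arrays of HAPLN3 lay close together and the PBS array of replicate 3 far below the other PBS arrays. None of ERBB3, CDH1, HAPLN3, IGFL1 and RRAD passed in replicates 1 and 2 without the block. IGFL1, an insulin-like growth factor family member, had pair differences of -1.54, -1.84 and 2.25, and RRAD, a small GTPase that blocks calcium channels, -0.96, -1.64 and 2.35.

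**Figure D4:**
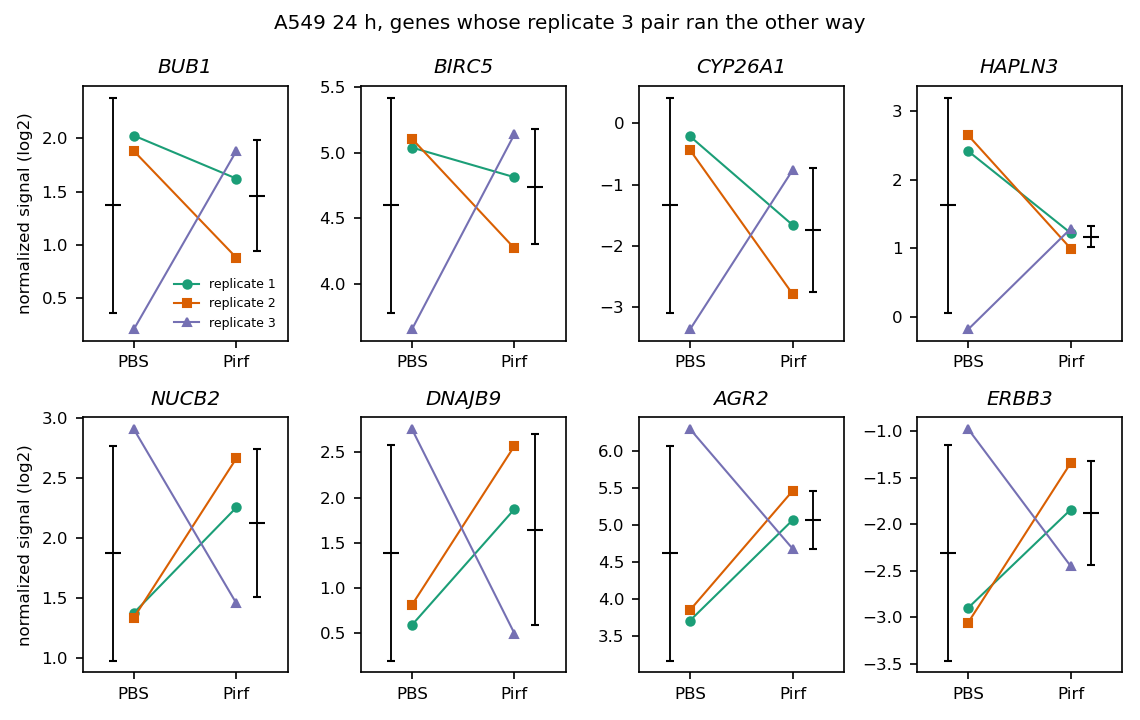
Normalized log2 signal (y axis) of 8 genes on the 6 arrays of A549 at 24 h, by treatment (x axis), with lines joining the arrays of a replicate and black bars for the mean and SD of 3. The line of replicate 3 crosses the others in every panel, as for BUB1, where PBS replicate 3 lies at 0.21 and the other PBS arrays at 2.03 and 1.88.

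Pair 3 also held the largest single differences. Among genes well above background on both of its arrays, the highest were ACTL8, a testis-restricted actin-like gene, at 3.60, and ADH1C, an alcohol dehydrogenase, at 2.74. The lowest were PTPRN2, a phosphatase-like protein of secretory vesicles, at -2.66, NIBAN1, a stress-induced regulator of translation, at -2.60, and the small heat shock protein CRYAB, at -2.59. CRYAB lay at -0.76, -0.02 and -0.71 in PBS and at 0.01, 1.56 and -3.30 in Pirfenidone, so that here it was the Pirfenidone array of replicate 3 that stood apart while its PBS array did not. In pairs 1 and 2 each of these 5 differed in the opposite direction.

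The lists of TGF-β signaling and matrix, the pathway Pirfenidone is known for in fibrosis, had small median differences. The TGF-β target list had medians of -0.13, -0.17 and -0.14 in the 3 pairs, the only list with 3 medians below -0.10. Of its 31 genes with 3 pairs, 9 were lower in all of them, where 7.83% of all genes were. None of the 32 tested passed at 24 h, in either set of replicates, with or without the block. COL1A1, the main chain of type I collagen, lay at -0.69, -0.62 and -2.14 in PBS and at -1.57, -1.34 and -2.29 in Pirfenidone. It was lower in every pair, by -0.88, -0.72 and -0.15, but PBS replicate 3 was lower than 2 of the Pirfenidone arrays, and the difference of -0.58 did not pass (SE 0.52, limma, adjusted p = 1).

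CCN2, a matricellular growth factor and TGF-β target, had pair differences of -0.68, -0.53 and 0.04. SKIL, a feedback inhibitor of SMADs, had -0.35, -0.40 and -0.28. The inhibitory SMAD7 had -0.10, 0.01 and -0.18. The pseudoreceptor BAMBI lay at 4.47, 4.61 and 5.02 in PBS and at 4.47, 4.72 and 4.48 in Pirfenidone. The ligand TGFB1 had pair differences of 0.01, 0.14 and -0.16, SMAD2 of -0.13, 0.16 and -0.08, and SMAD3 of -0.10, -0.38 and 0.37. Over the TGF-β pathway list of 36 genes the medians were -0.10, 0.12 and -0.15, and over the 26 matrix genes -0.06, 0.05 and -0.27.

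Other genes the study names did not pass either. The DNA repair enzyme PARP1 had pair differences of 0.02, -0.46 and 0.40, and the immune checkpoint ligand CD274 had -0.12, -0.45 and -0.01 at a level between -6.32 and -5.53. The list of apoptosis regulators had medians of -0.05, -0.02 and -0.01 over 25 genes.

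The lists for sterol synthesis, hypoxia, interferon, inflammation, heat shock, immediate early genes and epithelial-mesenchymal transition had medians between -0.33 and 0.14 in every pair. The immediate early list was at -0.33 in pair 3 and at -0.05 and -0.01 in the others. CA9, the carbonic anhydrase induced by hypoxia, lay at -3.22, -2.63 and -1.53 in PBS and at -2.35, -1.78 and -1.71 in Pirfenidone, with pair differences of 0.87, 0.85 and -0.17. It did not pass, since it missed the fold limit with the slide as a block (adjusted p = 0.0209 by limma in replicates 1 and 2).

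Some genes kept 1 direction in all 3 pairs. Of 16158 genes, 490 were higher in every pair, 3.03%, and 1265 were lower, 7.83%. All 3 Pirfenidone arrays lay above all 3 PBS arrays for 84 genes, 0.52%, and below for 183 genes, 1.13%. The genes named next were chosen for their direction among those well above background on all 6 arrays, so their values are a description.

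The highest of them was HAS2-AS1, the antisense RNA of the hyaluronan synthase gene HAS2. It lay at -5.46, -5.82 and -6.42 in PBS and at -4.94, -4.54 and -4.84 in Pirfenidone, with no overlap and a mean difference of 1.13 ± 0.55 (SD, n = 3 pairs). It did not pass over 3 replicates (limma, adjusted p = 0.171) and passed with the slide as a block (adjusted p = 0.0321). IL18R1, the receptor of interleukin 18, had pair differences of 0.36, 1.20 and 0.38 on its brighter probe, while its other probe had -0.25 in pair 3. The transcription factor ETS1 had 0.38, 0.82 and 0.41, and LHX4, a homeobox factor, 0.97, 0.33 and 0.70. ADTRP, which regulates tissue factor pathway inhibitor, had 1.34, 0.13 and 0.92 on its brighter probe. Its other probe, with no array well above background, had -0.09, 0.06 and -0.33.

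Among the lower genes, APOBEC3D lay at -5.55, -5.07 and -5.39 in PBS and at -6.09, -6.30 and -6.02 in Pirfenidone. PYHIN1, an interferon-inducible protein, lay at -5.73, -5.79 and -5.97 in PBS and at -6.27, -6.54 and -6.46 in Pirfenidone. PHYHIP, a partner of phytanoyl-CoA hydroxylase, had pair differences of -0.90, -0.41 and -0.77. In these 3 genes the groups did not overlap. The proton channel HVCN1 had -0.65, -0.20 and -1.53 on its brighter probe, but 0.41, 0.25 and -0.25 on the other, so its direction is not settled. The GTPase RAB17 had -1.12, -0.72 and -0.01 and XYLT1, which starts the sugar chains of proteoglycans, -0.26, -0.25 and -1.23. All but COL1A1 of the 20 genes that the rule for 1 direction named lay below -2, far under the 75th percentile, where small amounts of signal move the log2 value more.

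**Figure D5:**
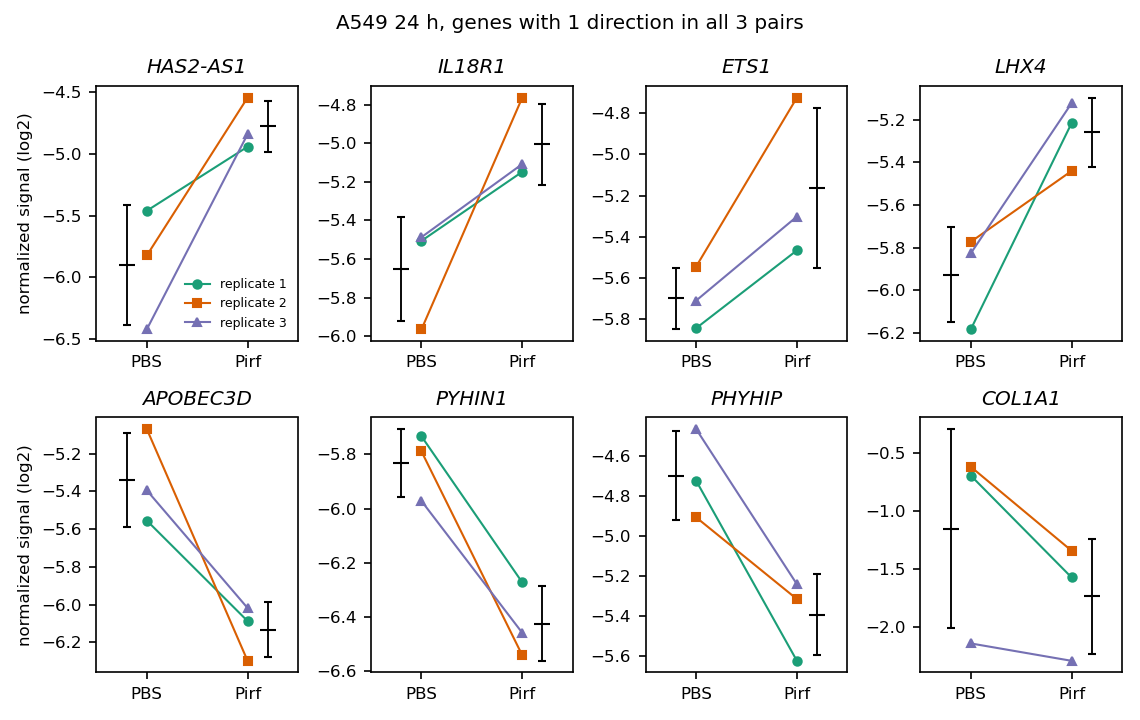
Normalized log2 signal (y axis) of 8 genes with 1 direction in all 3 pairs on the 6 arrays of A549 at 24 h, by treatment (x axis), with lines joining the arrays of a replicate and black bars for the mean and SD of 3. The 3 lines of each panel run the same way, and in COL1A1 the line of replicate 3 starts at -2.14, below the other PBS arrays.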

How the data were processed

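The authors hybridized RNA of each sample to a one-color Agilent array, and the deposited scanner files hold the background-subtracted intensity of each spot, written by Feature Extraction version 11.5.1.1 per the file headers. The authors also deposited a table of log2 values of the same arrays, whose probes have a median near 0 and whose differences between arrays correlated with those of the scanner files at 0.99961. That table was used as an alternative. The log2 of the processed intensity minus each array's 75th percentile over 43118 spots was computed, without the spots flagged as outliers, and the spots that share a probe were averaged. Groups came from the sample labels. limma 3.58.1 in R 4.3.3 was fitted to all 24 arrays as 8 groups, for 23827 of 34127 probes, those that some group had well above background on each of its 3 arrays. For replicates 1 and 2 alone, the 2 arrays of the A549 24 h pair 3 were left out of the fit. The threshold was 0.05 for p-values adjusted by Benjamini-Hochberg, with a log2 difference of 1 or more in size. The steps were tested on simulated data.

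A gene is its brightest probe, and 26498 probes were named by accession, 2000 by symbol and 321 by synonym in RefSeq's gene table of GRCh38.p14. Probe positions are those of the files, on hg19, and exons and untranslated regions were not analysed here. Comparisons, gene lists and members were chosen with earlier results of these data known. Genes were named by rule: those the study names, those that passed, the 10 highest and 10 lowest with 1 direction in 3 pairs, up to 10 highest and 10 lowest that passed in replicates 1 and 2, the 5 extremes of pair 3 and up to 4 of each list by the mean of pairs 1 and 2. Some of these genes are not reported here. Others named as examples of a list or as largest under the block were chosen after their values were seen. The 25 gene lists and the marker lists were written by hand. In A549 the slide and the replicate number coincide, and arrays of the same number deviated together from their group means at 24 h with an r of 0.39, 0.08 and -0.10 and at 6 h of 0.70, 0.58 and 0.64. The group means at 24 h include replicate 3, so its departure also enters the r of replicates 1 and 2. These values therefore do not settle whether replicates 1 and 2 were paired at 24 h. The number was taken to pair the samples at 6 h but not at 24 h. The 6 h p-values and calls nevertheless come from the fit without the block, which leaves that pairing out, unless the block is named. Values with the slide as a block, some of them added after the data were seen, stand beside those without it for most calls that changed. Place on the slide is fixed by treatment and time, so place and condition cannot be told apart. Alternatives were other background corrections, normalizations, filters, blocks, adjustments and arrays left out. The number of arrays limits the precision, and dim probes limit it further.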

Additional observations from a re-analysis of the deposited data

Results flagged for a closer look

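The effect of Pirfenidone in A549 differed between 24 h and 6 h, by limma's test of the difference, for 7 probes with 3 replicates. Without replicate 3 of 24 h it did so for 3 probes. The values that follow include replicate 3. The change at 24 h minus that at 6 h was -1.94 for HERPUD1, -2.28 for ADM2, -1.17 for GPT2 and -1.50 for PLEKHM3. It was 1.30 for HNRNPA0 and 1.65 for ZC3HAV1, both lower at 6 h. For ZNF833P it was -2.46, with 1 of 6 arrays at 24 h well above background. The change at 24 h in A549 minus that in H1975 passed for 46 probes with 3 replicates, 0.193%, and for 17 without replicate 3 of A549, 0.0713%. With the slide as a block and without that replicate the number was 188 of 23827. The 46 include PHGDH, an enzyme of serine synthesis, at -1.94 and SLC7A11, a cystine transporter, at -2.14, and both rose in H1975. Without replicate 3 and without the block the values were -1.42 for PHGDH (limma, adjusted p = 0.0162) and -1.76 for SLC7A11 (limma, adjusted p = 0.158). SLC7A11 thus did not pass in that fit.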

How the results depend on the processing

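With 3 replicates, 3 probes passed, and the number was 0 under normexp, 7 under quantile normalization, 10 with no filter, 0 with the strict filter, 9 with the slide as a block (the replicate block in A549), 1 with only the arrays compared and 0 with these and the replicate block. Leaving out single arrays or pairs gave 0 to 8. In replicates 1 and 2, 8 probes passed, and the number was 0 under normexp, 13 under quantile, 21 with no filter, 2 with the strict filter, 178 with the replicate block, 0 with only the arrays compared, with or without the block, 1 under Holm and 14 with no fold limit. Leaving out single arrays or pairs gave 0 to 411, where the lone array is assumed to vary like the other groups. For 24 h minus 6 h, 7 probes passed, and the number was 0 under normexp, 0 with no filter, 3 with only the arrays compared, 1 with the replicate block too, 0 under Holm and 1 to 5 with arrays or pairs left out. The largest, 411, came without Pirfenidone replicate 1. The methods' paired t-test gave 29, 56 and 66 probes unadjusted and 0 after Benjamini-Hochberg in the 3 comparisons. The TGF-β target median over 3 pairs was -0.12. It became -0.10 under quantile normalization and lay between -0.18 and -0.13 with 1 replicate left out. The other list medians moved by less than the spread between pairs, a spread that pair 3 sets: without replicate 3 the median turned from 0.11 to -0.45 for G2/M, from 0.11 to -0.60 for survivin and its partners and from 0.06 to -0.25 for S phase genes. The 3-replicate differences of NUCB2 and ASB2, which passed in replicates 1 and 2, and of CYP26A1, which passed there only with the block, also turned. Without replicate 2 they went from 0.25 to -0.29 for NUCB2, from -0.30 to 0.44 for ASB2 and from -0.40 to 0.57 for CYP26A1. The number of arrays and dim signals limit the small differences of most genes, and the causes of these changes were not tested.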
